A study of Mus musculus with 20 samples.

Results

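Ribosome rescue and ribosome-associated quality control were examined through 10 genes, Zfp598, Ascc3, Pelo, Hbs1l, Gtpbp1, Gtpbp2, Abce1, Nemf, Ltn1 and Ankzf1, which were looked up by symbol among the 18054 genes of a count table of mouse hippocampus. All 10 were found and all 10 passed the filter on low counts in both assays. The study compared mice without Qtrt1 (Qtrt1-/-, called knockout) with wild-type mice. The QTRT1 protein is part of the transglycosylase that exchanges a guanine for queuine in certain tRNA anticodons. Each of 10 animals gave 1 ribosome footprint library, which counts the mRNA stretches that ribosomes shield from nuclease, and 1 input library of cytoplasmic RNA from the same lysate, which contained cycloheximide, a drug that holds ribosomes on mRNA. There were 3 wild-type and 3 knockout females, and 2 wild-type and 2 knockout males. Wild-type female 1 was 6 months and 22 days old and the other 5 females 6 months and 21 days. In both genotypes male 1 was 6 months and 18 days old and male 2 was 5 months and 16 days. The strain is not given in the labels, and the knockout lacks Qtrt1 in every animal of the group with no stated restriction to a cell type.

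When a ribosome stalls and the next one runs into it, the ubiquitin ligase ZNF598, the product of Zfp598, marks the collided pair. The helicase ASCC3 can pull the leading ribosome apart, and PELO with the GTPase HBS1L binds ribosomes that lack a codon to read, after which ABCE1 splits them into subunits. GTPBP1 and GTPBP2 are GTPases related to HBS1L, and mice without GTPBP2 that also carry a defective brain arginine tRNA lose neurons, which tied this pathway to codon-dependent stalling in brain. NEMF then recognises the large subunit with its trapped peptide, the ligase listerin, the product of Ltn1, ubiquitinates that peptide, and ANKZF1 cuts it from its tRNA.

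Footprint libraries held 5357812 to 15517982 counts and input libraries 9000662 to 13637370, and the 10 genes together took 0.0418% to 0.0584% of footprints and 0.0577% to 0.0646% of input. Levels are given as CPM, read counts scaled to the same library size with TMM factors. Qtrt1 footprints were 4.25 to 8.47 CPM in wild-type and 0.129 to 1.28 CPM in knockout libraries, and its input RNA was 6.06 to 7.29 and 1.8 to 2.77 CPM, so every library matched its genotype label. All 8 marker genes of hippocampal fields were detected, with summed footprints of 718 to 1328 CPM. The summed footprints of 8 choroid plexus markers were 149.8 to 9328 CPM in females and 8751 to 13310 CPM in males, and those of 8 striatum markers were 183 to 1104 CPM in females and 165.8 to 210.5 CPM in males, with no marker at 0 in either list. In such bulk tissue fewer cells of a type and less RNA per cell cannot be told apart.

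The deposited codon tables show where on these mRNAs the listed footprints were placed. They listed codons of 6 of the 10 mRNAs, and the 4453 listed codon entries all matched the GENCODE M21 coding sequences of GRCm38. Hbs1l, Gtpbp2, Zfp598 and Ankzf1 had no listed codon. Codons are numbered here from 1 at the start codon. The codon with the most listed footprints over all 10 libraries is printed for the 5 mRNAs with listed footprints in every library. It stands in capitals between the 10 codons on each side, 5′ to 3′ on the mRNA strand.
Ltn1 codon 1522: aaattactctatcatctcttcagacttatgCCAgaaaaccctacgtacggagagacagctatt
Abce1 codon 554: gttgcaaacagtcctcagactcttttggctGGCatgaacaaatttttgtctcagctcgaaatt
Ascc3 codon 2151: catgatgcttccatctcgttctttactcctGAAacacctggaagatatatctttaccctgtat
Gtpbp1 codon 42: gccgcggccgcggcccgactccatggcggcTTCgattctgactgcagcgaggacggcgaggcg
Pelo codon 227: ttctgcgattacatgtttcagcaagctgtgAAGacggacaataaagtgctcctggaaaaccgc
The Ltn1 window lies in exon 26 on the minus strand at chr16:87382676-87382738, and the Pelo window in exon 1 on the minus strand at chr13:115089209-115089271. The Gtpbp1 window lies in exon 1 on the plus strand at chr15:79691000-79691062. The other two windows cross an intron: that of Abce1 joins exons 16 and 17 on the minus strand (chr8:79686005-79687451) and that of Ascc3 joins exons 41 and 42 on the plus strand (chr10:50849603-50850479). All 5 windows are coding sequence.

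The listed footprints lay on only part of the coding sequence of each of these mRNAs. Ltn1 had 10619 footprints in the codon tables, on codons 721 to 1763, and none was listed before codon 721. Ascc3 had 2230 footprints on codons 424 to 2193 of 2198. Abce1 had 886 footprints, all on codons 544 to 595 of 599. Pelo had 496 on codons 23 to 244 of 385, Gtpbp1 had 393 on codons 16 to 455 of 668, and Nemf had 13 on codons 694 to 699 of 1064. The tables list only codons with a footprint, and no source used here states why other stretches are unlisted. They hold only part of the counted footprints. Nemf had 76 to 432 counted footprints a library and 0 to 5 listed, and Abce1 335 to 1201 counted and 27 to 168 listed. Hbs1l had 169 to 527 counted and none listed. The listed stretches therefore need not show how ribosomes were spread along a whole mRNA. The printed codon held 23.9% of the listed footprints of Gtpbp1, 16.1% of those of Abce1, 9.27% of Pelo, 3.36% of Ascc3 and 2.96% of Ltn1.

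**Figure D1:**
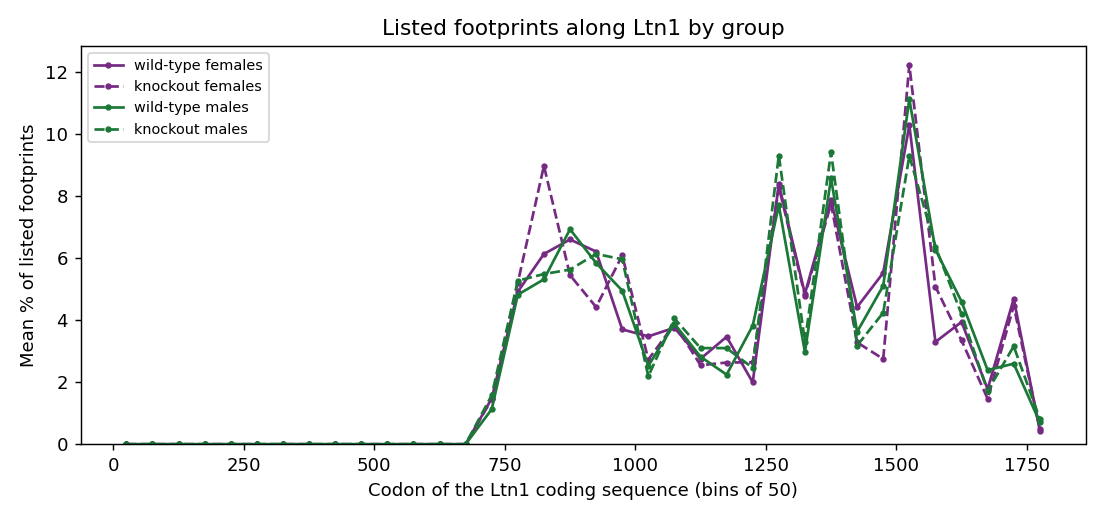
Share of listed Ltn1 footprints (mean over the libraries of a group, percent, vertical axis) in bins of 50 codons along the coding sequence (horizontal axis). No group has a listed footprint before codon 721, and the highest bin of every group but knockout males holds codon 1522.

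At Ascc3 codon 2151, a glutamate codon (GAA), the 3 knockout females had 4.81%, 4.18% and 4.17% of the listed Ascc3 footprints and the 3 wild-type females 2.31%, 2.97% and 1.73%. These groups do not overlap in females, which held for 25.6% of the 160 codons of these 5 mRNAs listed in all 6 female libraries, 16 with the knockouts above and 25 with them below. Among males the knockouts had 3.68% and 3.42% and the wild types 2.15% and 7.14%, which lie on both sides of the knockouts. The shares rest on 4 to 14 footprints a library, and no test was made. Ltn1 codon 925, another codon with many footprints, went the other way without overlap in females, with 1.95% to 2.14% in knockouts and 2.26% to 3.44% in wild types. In males its values overlapped, at 2.55% and 4.23% against 3.14% and 3.49%. Ltn1 codon 1645, with 281 footprints where codon 925 had 279, overlapped in females, at 1.27% to 2.63% against 2.0% to 3.39%. For the other codons whose sequence is shown the groups overlapped in females: Ltn1 codon 1522 held 2.15% to 5.16% in knockout and 1.79% to 2.55% in wild-type females, Abce1 codon 554 held 10.0% to 20.5% and 14.9% to 24.4%, Gtpbp1 codon 42 held 17% to 41.4% and 3.85% to 32.4%, and Pelo codon 227 held 5.26% to 22.0% and 4.08% to 12.8%.

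Footprints at codons read by queuosine tRNAs were compared with those at control codons of the same NNY form inside these mRNAs. The score was the log2 of mean occupancy at positions of 8 queuosine codons over that at positions of 6 control codons. Positions were pooled over mRNAs with at least 100 footprints in the library, for the codon upstream of the listed one. Each position counted equally, and Ascc3 has 286 queuosine positions where Ltn1 has 137. In females it was -0.18 ± 0.30 (SD, n = 3) without Qtrt1, where wild types had 0.16 ± 0.15 (SD, n = 3). In males the knockout value was 0.01 ± 0.67 (SD, n = 2), and that of wild types 0.38 ± 0.70 (SD, n = 2). The knockout range of -0.44 to 0.15 in females overlapped the wild-type range of 0.06 to 0.34, and the male ranges overlapped too. Wild-type male 2 reached that minimum with Ltn1 only, so the male groups rest on different mRNAs. The female groups do too. Abce1 reached the minimum in all 3 knockout females (101, 120 and 112 listed footprints) and in none of the 3 wild-type females (78, 66 and 94). With no minimum the male means were -0.50 in knockouts and -0.36 in wild types, and the female means -0.53 and -0.01. Ltn1 alone gave the opposite order in females, 0.48 ± 0.24 (SD, n = 3) for knockouts against 0.32 ± 0.23 (SD, n = 3). Ascc3 alone gave -0.64 ± 0.42 in knockout and 0.10 ± 0.22 in wild-type females (SD, n = 3 each), whose ranges of -0.89 to -0.15 and -0.12 to 0.32 do not overlap. In males Ascc3 alone gave -0.36 ± 1.02 and -0.69 ± 0.04 (SD, n = 2 each), the opposite order. The Ascc3 scores had no footprint minimum and rest on few footprints. Control codons held 17 to 42 a library in females and 6 to 45 in males. Wild-type male 2 had 8 footprints at queuosine and 6 at control codons, so the small SD of 2 such values does not show precision. The direction in females also turned when the listed codon itself was scored, with 0.58 ± 0.21 in knockouts and 0.33 ± 0.27 in wild types (SD, n = 3 each).

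The 10 mRNAs differed widely in level. Per kilobase of coding sequence, wild-type footprint levels were highest for Abce1 (44.0 ± 6.2 CPM per kb, SD, n = 5) and Ltn1 (41.2 ± 7.5), and these do not differ beyond their spread. Gtpbp1 followed at 30.5 ± 2.1, then Hbs1l at 14.7 ± 1.1 and Pelo at 13.8 ± 1.1, which also lie within their spread of each other. Nemf had 9.74 ± 3.5, Gtpbp2 6.66 ± 0.62, Ascc3 6.498 ± 2.5 and Zfp598 5.27 ± 0.99, and neighbours among these 4 differ by less than the larger of their SDs. Ankzf1, the peptidyl-tRNA hydrolase, was the lowest at 1.38 ± 0.21 CPM per kb, at the 7.91 percentile of 12982 genes. In input RNA per kilobase of transcript Hbs1l was the highest at 31.4 ± 2.2 CPM per kb (SD, n = 5), followed by Abce1 at 25.3 ± 0.48, Ltn1 at 19.3 ± 2.5 and Gtpbp1 at 17.2 ± 0.66, and Ankzf1 was again the lowest at 2.54 ± 0.27.

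The ratio of footprints to input in the 5 wild-type animals separated mRNAs whose products act together. It was computed as log2 of footprint CPM plus 0.5 minus log2 of input CPM plus 0.5, and its median over 13067 genes was -0.16. Neither level was divided by length, so the ratio also depends on how much of a transcript is coding. It is not the ratio of the levels per kilobase. Ltn1 stood at 0.54 ± 0.09 (SD, n = 5; percentile 78.5) and Pelo at 0.47 ± 0.23 (percentile 76.2). Hbs1l, whose product is the partner of PELO, stood at -1.50 ± 0.12 (percentile 10.8), and every wild-type value of Pelo (0.13 to 0.65) lay above every one of Hbs1l (-1.67 to -1.32). Gtpbp1 at 0.04 ± 0.07 and Gtpbp2 at -1.30 ± 0.18 differed in the same manner, at percentiles 58.32 and 14.01. Ascc3 (-1.32 ± 0.52), Ankzf1 (-1.06 ± 0.27), Zfp598 (-0.71 ± 0.29), Nemf (-0.51 ± 0.48) and Abce1 (-0.29 ± 0.21) lay between or near these. Ascc3 and Nemf had the widest spread between animals.

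**Figure D2:**
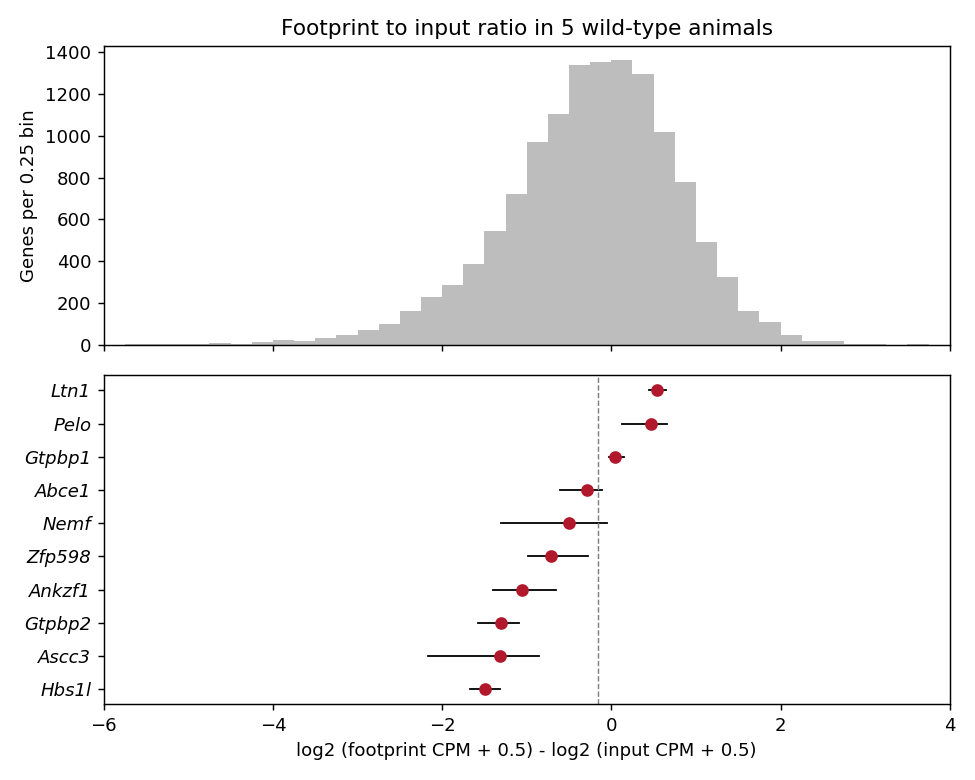
Footprint to input ratio on the log2 scale (horizontal axis, pseudocount 0.5) in 5 wild-type animals, as a histogram of 13067 genes above and as the mean (point) and range (line) of the 10 mRNAs below, with the median of all genes dashed. Ltn1 and Pelo lie to the right of the median, and Hbs1l, Ascc3, Gtpbp2 and Ankzf1 far to its left.

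Knockout was set against wild type to ask whether levels of the rescue factors differed without Qtrt1. In no comparison did a member pass edgeR's quasi-likelihood test at a Benjamini-Hochberg adjusted p under 0.05, and DESeq2 called 0 as well, with the shares of all genes that it called given after those of edgeR. In footprints the count of members called was 0 of 10 in females, where 7.06% of all 13143 genes were called, 0 in males (0% of all genes), 0 over both sexes (0.00761%) and 0 for the difference between the sexes (0%). In input it was 0 in females (3.48% of 14164 genes), males (0%), both sexes (0.734%) and the sex difference (0%). For translational efficiency, the footprint level relative to input, it was 0 in females (0.0424% of 14146 genes), males (0%), both sexes (0%) and the sex difference (0%). At an unadjusted p under 0.05 the members numbered 0, 1, 1 and 0 in footprints, 1, 3, 3 and 3 in input and 1, 0, 0 and 0 in efficiency, in the same order, while all genes reached 25.6%, 4.28%, 19.6% and 8.44%, then 20.1%, 8.80%, 17.6% and 9.45%, then 12.6%, 2.59%, 10.3% and 2.89%. Among genes to which it gave an adjusted p, DESeq2 called 10.3%, 0.00586%, 6.09% and 0.238% in footprints, 5.87%, 0.0225%, 4.68% and 4.39% in input, and 1.95%, 0%, 0.688% and 0% in efficiency, in that order. It gave no adjusted p for up to 9 members in a comparison. Over both sexes the median log2 difference of the members was -0.01 in footprints and 0.04 in input, beside 0.00 and 0.01 for all genes, and 5 and 9 of 10 lay above 0.

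**Figure D3:**
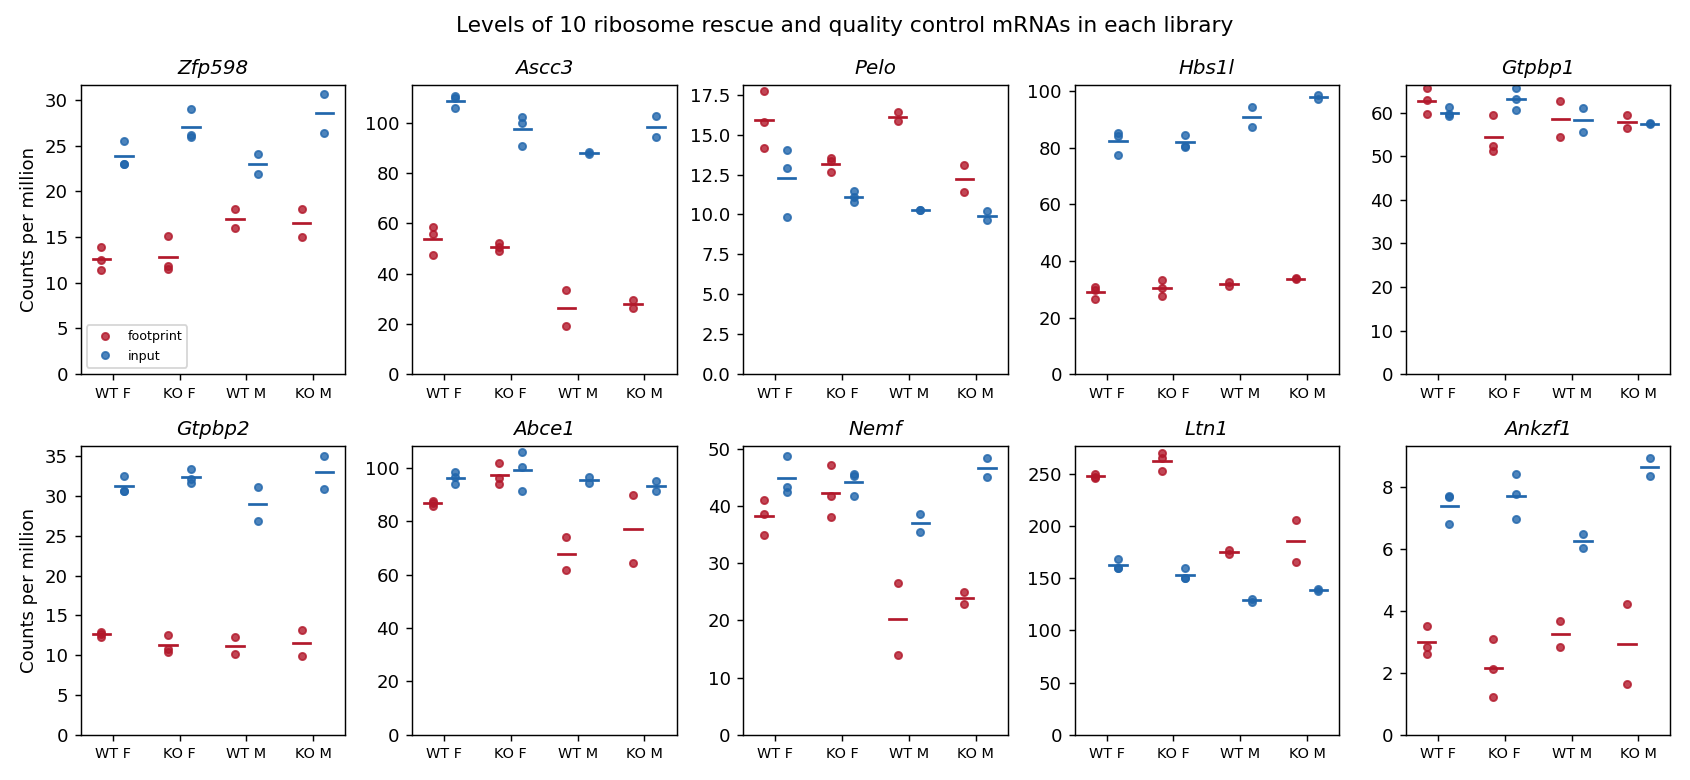
CPM (vertical axis, from 0) in each footprint and input library of wild-type (WT) and knockout (KO) females (F) and males (M), with a bar at each group mean. Footprints of Ascc3, Nemf and Ltn1 are lower in all 4 males than in all 6 females, while genotypes lie close together.

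Among the sensing factors, Zfp598 input RNA came nearest to the threshold. Wild-type females had 23.1, 23.0 and 25.5 CPM, and knockout females 29.0, 26.2 and 26.0 CPM. Wild-type males had 24.1 and 21.9 CPM, and knockout males 30.7 and 26.4 CPM. The knockout libraries lay above the wild-type ones in both sexes. Over both sexes the log2 difference was 0.25 ± 0.07 (SE; 95% interval 0.08 to 0.41), with an edgeR adjusted p of 0.132, and of 0.0856 to 0.463 over its alternatives. Zfp598 footprints differed by 0.00 ± 0.13, with an interval of -0.27 to 0.27.

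Ascc3, the helicase that dissociates the leading collided ribosome, had input differences of opposite sign in the sexes. Its input RNA was 105.8, 109.7 and 110.5 CPM in wild-type and 100, 102.5 and 90.6 CPM in knockout females. In males it was 88.4 and 87.7 CPM in wild types and 102.7 and 94.3 CPM in knockouts. The knockouts thus lay below the wild types in females and above them in males. The log2 difference was -0.15 ± 0.06 in females and 0.16 ± 0.08 in males (SE), and the difference between the sexes was -0.32 ± 0.10 with an unadjusted p of 0.00943 in edgeR and an adjusted p of 0.357. Ascc3 footprints differed by -0.03 ± 0.13 (SE) over both sexes.

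Pelo, the factor that enters the empty decoding site of a stalled ribosome, came nearest to the threshold in footprints. Wild-type females had 17.7, 15.8 and 14.2 CPM of its footprints, and knockout females 13.3, 12.6 and 13.5 CPM. In males they were 15.9 and 16.4 CPM in wild types and 13.1 and 11.4 CPM in knockouts, so every knockout library lay below every wild-type library of its sex. The log2 difference over both sexes was -0.33 ± 0.11 (SE; 95% interval -0.57 to -0.09), with an adjusted p of 0.138 in edgeR, 0.229 in DESeq2 and 0.1002 to 0.632 over all alternatives. In input the difference was -0.10 ± 0.11, and relative to input it was -0.22 ± 0.15 with an interval of -0.52 to 0.09. Pelo exons share 739 bases with Gm49395 on the same strand and 468 with the antisense gene Gm10734, and no source used here says whether counting was stranded, so part of these counts is uncertain. Over the listed Pelo codons of the codon tables the female difference was 0.09 instead of -0.27.

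Footprints of Hbs1l, whose product binds PELO, were 26.5 to 30.8 CPM in wild-type and 27.8 to 33.3 CPM in knockout females and 31.1 to 34.1 CPM in males, with a log2 difference of 0.08 ± 0.10 (SE) over both sexes. Wild-type females had 86.7, 87.3 and 85.8 CPM of Abce1 footprints, and knockout females 96.2, 101.9 and 93.8 CPM, which do not overlap, but 73.9 and 61.7 against 64.2 and 89.6 CPM in males, which do. The Abce1 difference over both sexes was 0.17 ± 0.10 (SE; 95% interval -0.04 to 0.38). Wild-type females had 65.6, 59.6 and 63.0 CPM of Gtpbp1 footprints, knockout females 51.2, 52.4 and 59.4 CPM, and relative to input they gave -0.26 ± 0.11 (SE) in females with an edgeR adjusted p of 0.335. In males the value for Gtpbp1 relative to input was 0.03 ± 0.14, and the test of the sex difference gave -0.30 ± 0.18 with an unadjusted p of 0.116. Gtpbp2 footprints were 9.90 to 13.2 CPM over all 10 libraries and differed by -0.04 ± 0.13 over both sexes.

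The factors that act on the released large subunit had no called footprint difference either. Nemf footprints differed by 0.17 ± 0.15 (SE) over both sexes, but the 2 wild-type males were far apart, at 26.59 and 13.99 CPM, while the knockout males were at 25.0 and 22.9 CPM. Without wild-type male 1, the one with the higher value, the Nemf difference over both sexes became 0.47 with an edgeR adjusted p of 0.0318, so 1 library decides that call. Nemf input RNA in males was 38.7 and 35.4 CPM in wild types and 48.3 and 45.1 CPM in knockouts, a log2 difference of 0.34 ± 0.10 (SE) with an edgeR adjusted p of 0.49. Ltn1 footprints differed by 0.08 ± 0.08 over both sexes, with a 95% interval of -0.08 to 0.25, the narrowest of the 10. Ankzf1 had 1.21 to 4.23 CPM of footprints in all libraries, and its interval over both sexes was -0.91 to 0.38, so that only large changes of this mRNA could have been seen at this depth. Exons of genes on the opposite strand cover 166 bases of Nemf (Klhdc2), 505 of Ankzf1 (Glb1l), 266 of Hbs1l (4930455C13Rik) and 254 of Gtpbp1 (Gm26884), with the same doubt about strand.

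**Figure D4:**
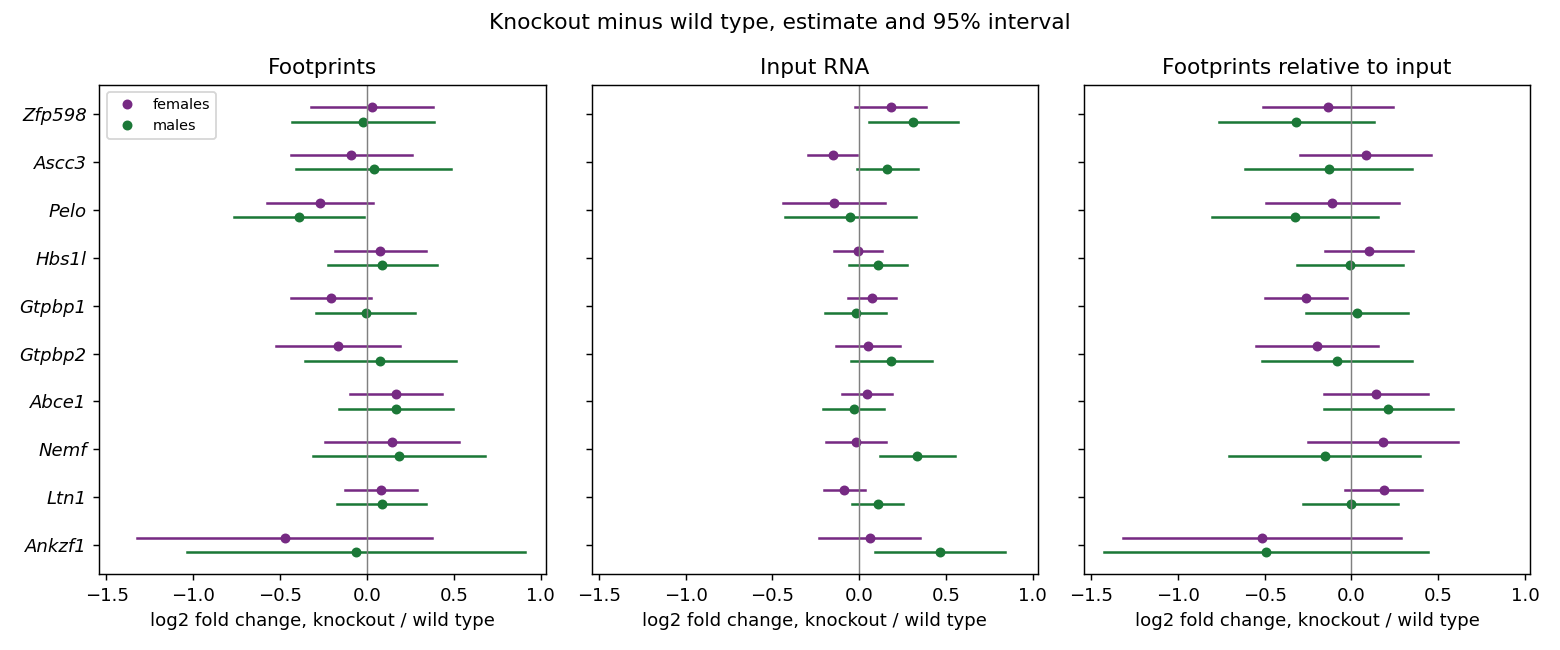
Log2 fold change of knockout over wild type (horizontal axis) with its 95% interval for each mRNA in females and males, in footprints, input RNA and footprints relative to input. The intervals of Ankzf1 are the widest, and the largest male input values are those of Ankzf1, Nemf and Zfp598.

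Members whose knockout libraries did not overlap the wild-type ones were also counted. In footprints 2 members lay above and 2 below wild type in knockout females, where 34.9% of all genes did not overlap, and 1 above and 1 below in males (26.9%). In input RNA 1 lay above and 1 below in females (25.2%). In male input RNA 6 lay above (Hbs1l, Zfp598, Ascc3, Nemf, Ltn1 and Ankzf1) and 1, Pelo, below, against 19.3% above and 18.5% below of all genes (37.9% in all). The median male input difference of the 10 was 0.13 on the log2 scale and that of all genes 0.00, in a comparison of 2 animals with 2.

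A larger difference within these genes lay between the sexes, a comparison that was chosen after the values had been seen. Footprints of Ascc3, Nemf, Ltn1 and Abce1 were higher in the 6 females than in the 4 males, over both genotypes, and those of Zfp598 were lower. These 5 of 10 passed edgeR's test, where 29.9% of all genes did (15.2% higher and 14.7% lower), and 4 passed in DESeq2, where 29.5% of all genes did. The sexes also differed in the choroid plexus and striatum markers given above. Male 1 of each genotype was 6 months and 18 days old, close to the females, and male 2 was younger.

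For Ascc3 the wild-type females had 58.5, 55.7 and 47.5 CPM of footprints and the knockout females 52.3, 48.9 and 50.6 CPM, against 33.4 and 19.1 CPM in wild-type males 1 and 2 and 26.2 and 29.5 CPM in knockout males 1 and 2. All females lay above all males, which 9.85% of all genes did, with a further 7.61% below (17.5% in all). The log2 difference was 0.93 ± 0.13 (SE), with an edgeR adjusted p of 0.000367. Nemf footprints were 41.1, 38.7 and 35.0 CPM in wild-type and 41.8, 47.2 and 38.0 CPM in knockout females, and above all male values (13.99 to 26.59 CPM). The Nemf difference was 0.84 ± 0.15 (SE; edgeR adjusted p 0.00128). For Ltn1 the wild-type females had 246.2, 249.7 and 246.7 CPM and the knockout females 264.8, 252.3 and 269.6 CPM, against 177.2 and 172.9 CPM in wild-type and 165.6 and 206 CPM in knockout males. The Ltn1 difference was 0.50 ± 0.08 (SE; edgeR adjusted p 0.000579). Both males nearest to the females in age lay below every female for all 3 mRNAs, with 33.4 and 26.2 CPM for Ascc3, 26.59 and 25.0 CPM for Nemf, and 177.2 and 165.6 CPM for Ltn1 in wild-type and knockout male 1. That is 1 animal a genotype, and the parts of age, sex and tissue content in these differences were not tested.

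For Abce1 and Zfp598 the sexes overlapped. Abce1 differed by 0.34 ± 0.10 (SE; edgeR adjusted p 0.0188), with 85.8 to 101.9 CPM in females and 61.7 to 89.6 CPM in males. Zfp598 differed by -0.40 ± 0.13 (SE), with 11.4 to 15.1 CPM in females and 15.0 to 18.1 CPM in males, and its adjusted p was 0.0294 in edgeR, 0.0623 in DESeq2 and 0.0184 to 0.187 over all alternatives. Ascc3, Nemf and Ltn1 stayed called in every alternative in which they were tested, with log2 differences of 0.78 to 1.18, 0.67 to 1.14 and 0.43 to 0.59. That includes leaving out wild-type females 1 and 2 (lowest in choroid plexus markers) and leaving out wild-type females 1 and 3 with knockout female 2 (highest in striatum markers). Neither made the sexes alike in markers, as mean log2 input CPM. The first kept wild-type female 3, at 6.14 for striatum against 3.43 to 3.94 in males. The second kept wild-type female 2, at 2.13 for choroid plexus against 5.06 to 5.70 in males. The part of tissue content was not tested. In both cases these 3 members were called and Abce1 and Zfp598 were not.

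**Figure D5:**
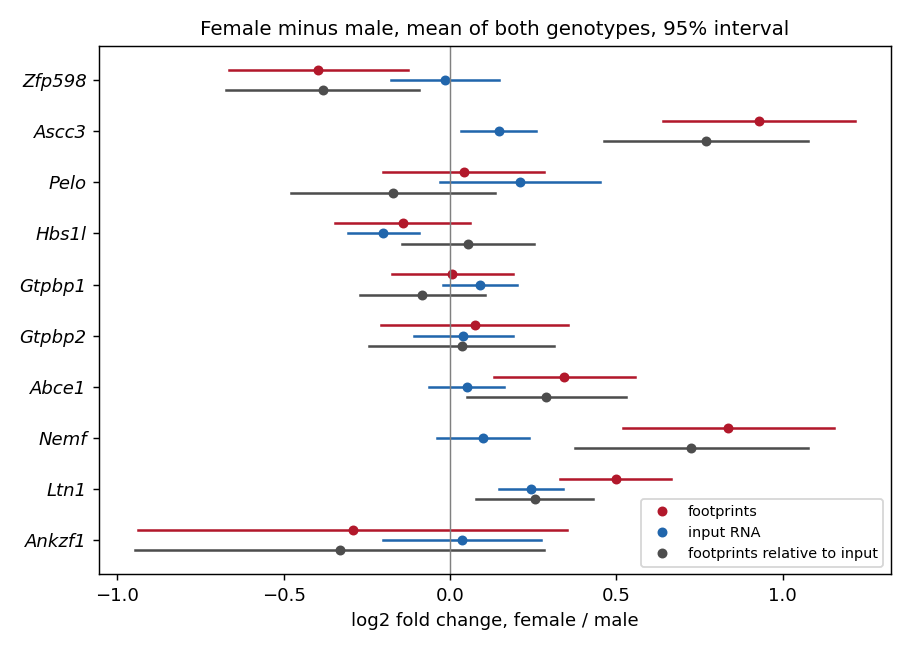
Log2 fold change of females over males (horizontal axis), mean of both genotypes, with its 95% interval for each mRNA in footprints, input RNA and footprints relative to input. For Ascc3 and Nemf the footprint values of 0.93 and 0.84 stand far from the input values of 0.15 and 0.10.

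The input RNA of the same mRNAs differed less between the sexes. Input called 2 of 10 members, Ltn1 higher in females at 0.24 ± 0.04 (SE; edgeR adjusted p 0.003) and Hbs1l lower at -0.20 ± 0.05 (edgeR adjusted p 0.0149), where 20.1% of all genes were called (11.2% higher and 8.83% lower). These 2 were also the members whose sexes did not overlap in input, Ltn1 with all females above (6.33% of all genes) and Hbs1l with all females below (5.46%), 11.8% of genes in all. Ascc3 input had a log2 difference of 0.15 ± 0.05 (edgeR adjusted p 0.0645) and Nemf input one of 0.10 ± 0.06 (edgeR adjusted p 0.303). Relative to input, 2 of 10 members were called, where 7.73% of all genes were (4.21% higher and 3.51% lower). These were Ascc3 at 0.77 ± 0.15 (SE; edgeR adjusted p 0.0056) and Nemf at 0.72 ± 0.17 (edgeR adjusted p 0.0151). With the animal as a block, which pairs the footprint and input libraries of an animal, 4 were called, Abce1 at 0.30 and Ltn1 at 0.26 being added. With either set of females left out, 0 were called in this efficiency comparison, where Ascc3 had 0.66 and 0.82 and Nemf 0.68 and 0.64. Without knockout male 1 also 0 were called. At an unadjusted p under 0.05 the members higher or lower in females numbered 5 in footprints, 3 in input and 5 in efficiency, where 41.7%, 34.1% and 24.3% of all genes did so. The genotype difference of Ascc3 and Nemf footprints did not pass the test of a difference between the sexes, at -0.13 ± 0.26 and -0.04 ± 0.29 (SE), with 95% intervals of -0.69 to 0.44 and -0.67 to 0.59.

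Other genes of the pathway were taken from 5 lists of 50 genes, of which 49 were found and tested. In footprints of females 3 rose and 2 fell in the knockout by edgeR's test, where 2.81% of all genes rose and 4.25% fell, and in input 1 rose, where 0.748% of all genes rose and 2.73% fell. In edgeR no other knockout comparison called one of the 49. In footprints over both sexes DESeq2 called 3 of the 49, where it called 6.09% of all genes to which it gave an adjusted p. These were Otud1 (adjusted p 0.00348), Rchy1 (0.00924) and Rnf14, a ligase for trapped translation factors (0.0259). For these edgeR gave -0.58, 0.50 and 0.27 with adjusted p of 0.0571, 0.0629 and 0.102. DESeq2 also called Rnf14 in female footprints, at an adjusted p of 0.0248 against 0.0635 in edgeR, and did not call the input difference of Rchy1 (adjusted p 0.104). Of 18 genes of collision sensing and signalling 2 fell in female footprints: Otud1, a deubiquitinase, by 0.68 on the log2 scale (SE 0.15, edgeR adjusted p 0.0198), and Rnf10, a ligase that ubiquitinates ribosomal proteins of the small subunit, by 0.37 (SE 0.10, edgeR adjusted p 0.0465). Of 7 splitting partners and termination factors Trip4, a subunit of the complex that holds ASCC3, rose by 0.42 ± 0.12 (SE; edgeR adjusted p 0.0466). Of 13 genes of large-subunit quality control 2 rose, Rchy1, a ligase for tailed peptides, by 0.72 ± 0.15 (SE; edgeR adjusted p 0.0162) and Ufm1, the ubiquitin-like modifier attached to the large subunit, by 0.59 ± 0.17 (edgeR adjusted p 0.0478). Rchy1 also rose in input, by 0.31 ± 0.08 (SE; edgeR adjusted p 0.0494). None of 7 genes that decay stalled messages and none of 4 mitochondrial rescue factors was called in female footprints, where 1 of each had an unadjusted p under 0.05. In males the footprint differences of these 5 genes were -0.47 ± 0.18 for Otud1, 0.07 ± 0.12 for Rnf10, -0.02 ± 0.14 for Trip4, 0.27 ± 0.18 for Rchy1 and 0.09 ± 0.20 for Ufm1 (SE), and none was called. The edgeR test of a difference between the sexes gave -0.44 ± 0.16 for Rnf10 (unadjusted p 0.0158, adjusted p 0.486) and 0.44 ± 0.18 for Trip4 (unadjusted p 0.0309, adjusted p 0.56). Choroid plexus markers in these females were 149.8 to 5962 CPM in wild types and 2218 to 9328 CPM in knockouts, and their part in these calls was not tested.

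The genes whose levels most resembled the mean of the 10 mRNAs over the 10 footprint libraries were Myt1l (Pearson r 0.97), Fam171a1 (0.96) and Chgb (0.96). In input they were Pfas (0.96), Ccdc71 (0.89) and Zfp287 (0.89). These are given as a description over libraries that also differ in sex and in the choroid plexus and striatum markers. The members themselves did not vary as 1 block, each being set against the mean of the other members. In footprints Ascc3 correlated with that mean at 0.64, Nemf at 0.60 and Ltn1 at 0.59, whereas Zfp598 stood at -0.74 and Hbs1l at -0.47.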

How the data were processed

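The authors deposited gene counts for 20 libraries, unnormalised and by gene symbol. The authors' codon tables give, per the file headers, coverage as footprint counts per codon, the occupancy as a ratio to the mean of the mRNA, and the covered share of the coding sequence as a percent. Per the submitters' processing notes SAMtools 0.1.19, Bowtie in versions 1.2.2 and 1.0.0, Trimmomatic 0.39 and cutadapt 1.8.1 were used, without stated roles. No source used here gives the build, the counting program, its use of strand or any collapsing of duplicates.

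Counts were tested with edgeR 4.0.16 (TMM, filterByExpr on the 4 groups of sex and genotype, quasi-likelihood F tests) in R 4.3.3, with DESeq2 1.42.0 as the alternative, and p-values were adjusted over all genes. Translational efficiency was the interaction of assay and genotype over 20 libraries. The test was checked on simulated data. Lengths, exons and sequences came from GENCODE M21 (GRCm38), using the transcript with the longest coding sequence. Footprint levels were divided by coding length and input levels by transcript length. The members and the lists of other genes were chosen with earlier results of these data known, and every listed gene that edgeR called in a knockout comparison is named; those called between the sexes are not. Footprint and input libraries share an animal number in the labels and deviated together from their group means (r from 0.22 to 0.48). Same replicate numbers of the genotypes did not deviate together in females (r from -0.21 to -0.11). In males, with 2 animals a genotype, deviations mirror each other, so this measure cannot show pairing or its absence. Male replicate numbers share an age across the genotypes. Labels give 1 animal per number, and how the animals were bred is not stated.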

Additional observations from a re-analysis of the deposited data

How the results depend on the processing

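No member was called in the 12 knockout comparisons under DESeq2, other size factors, no filter, the replicate block or without either set of females, with 1 exception when each animal was left out: over both sexes, footprints gave 0 to 1 called. Leave-one-out counts for females against males were 3 to 5 in footprints, 1 to 3 in input and 0 to 4 in efficiency. Footprint calls fell to 3 without knockout male 1 or wild-type male 2, input calls to 1 without knockout male 1 or wild-type male 1, and efficiency calls to 0 without knockout male 1, to 1 without wild-type female 1 or knockout female 2, and rose to 4 without knockout male 2. Without wild-type females 1 and 2, the calls were 3 in footprints, 1 in input and 0 in efficiency. Without wild-type females 1 and 3 and knockout female 2, footprints gave 3 and efficiency 0. Footprints of the codon tables gave 3 of 5 members tested. The replicate block gave 4 in efficiency, where it is the animal, and changed no other count of calls. A block was not run for females against males in footprints or input. In the main fits 29.9% of all genes were called between the sexes in footprints, 20.1% in input and 7.73% in efficiency. The shares of all genes in the alternative fits are not given here. Whether the member counts moved with those shares can therefore not be read from them. Replicate numbers did not deviate together in females (r from -0.21 to -0.11), and in males this could not be judged. The queuosine codon score difference in females was 0.25 at the listed codon against -0.34, and ranged from -0.50 to -0.21 without single animals, and in males from -0.86 to 0.13. Of 2060 alternative values for single members in knockout comparisons 145 changed sign, none of them called, the largest such main value being 0.41. The cause of these shifts was not tested. With 2 males a genotype, and a single animal after leaving one out, its spread is taken from the other groups.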
